A study of Ovis aries with 42 samples.

Results

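The genes described here are 40 complement and clotting factors, mostly secreted proteases, pore-forming proteins, cofactors and inhibitors of plasma. The list holds 22 complement genes and 18 clotting genes, taken by symbol from 2 deposited gene tables of sheep tissue. The liver table held 39 of them among 22981 genes, and C8G was not found there under its symbol. The gallbladder table held 38 among 29285 genes, without C8G and CLU, and C1R was matched there through its locus number. Every member found passed the filter on low counts, among 16508 genes tested in liver and 18717 in gallbladder.

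Complement is a chain of plasma proteins that marks microbes and damaged cells and can end in a pore in the target membrane. Its classical, lectin and alternative arms meet at C3, and the terminal proteins C5 to C9 build the pore. Clotting runs from contact factors and tissue factor through vitamin K-dependent proteases to thrombin, which turns fibrinogen into fibrin, and it is held back by antithrombin, protein C and protein S. Hepatocytes make most of these proteins in the adult, while some complement genes are also transcribed in epithelium, fibroblasts, endothelium and macrophages.

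RNA-seq was run on total RNA from frozen tissue of wild-type sheep (WT) and of sheep carrying CFTR-/- (CF), the genotype of cystic fibrosis, in which an epithelial chloride and bicarbonate channel is lost. How CFTR was disrupted is not in the labels. The 24 liver libraries came from 12 groups of 2, each genotype sampled on fetal days 50, 65, 80, 100 and 120 (written d50 and so on) and once more at the end of gestation, labelled term in WT and birth in CF and read here as 1 stage. The 12 gallbladder libraries came from 6 groups of 2, namely WT of d100, d120 or birth, and CF of d80, d100 or d120. The titles of the WT term livers name a female and a male, and the other RNA titles give no sex. No other treatment is labelled.

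Library totals ran from 29705597 to 56808639 estimated counts in liver and from 32374693 to 54443213 in gallbladder. Levels below are CPM, counts scaled to the library total with TMM factors. CPM is not scaled for gene length here, so levels are compared between libraries and not between genes. CFTR itself was between 0.687 and 42.2 CPM in CF liver and between 0.846 and 2.81 CPM in WT liver, so its transcript does not check the genotype labels. Several libraries stand apart. The second CF birth liver library had a summed level of 19 hepatocyte markers of 31200 CPM, against 135000 CPM in the first and 147000 to 149000 CPM at WT term. Gallbladder libraries differed far more in the same markers, as given with the gallbladder results. The WT term liver libraries carry library numbers from another range than all other RNA libraries. One donor number is on the second WT d65 liver and on a liver and a gallbladder of CF d100. The tissues share animals, since 6 of the 12 gallbladder samples carry the donor number of a liver of the same genotype and stage, and the WT d100 gallbladders and the first WT birth gallbladder carry a stem found on such a liver. Pairs of WT d50, d80, d100 and d120 and of CF d65 and d80 livers share a donor-number stem. The donor numbers of the WT d100 gallbladders differ only in a final letter, so that pair may come from 1 animal. P-values thus measure the spread between these libraries, which may be smaller than that between unrelated animals.

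Complement transcripts climbed through fetal life in liver, and clotting transcripts climbed less. On a line fitted from d50 to d120, 19 of 39 members rose in WT liver and none fell, where 4.8% of all genes tested were called (edgeR quasi-likelihood test, adjusted p under 0.05) 3.19% higher and 1.61% lower. Of 21 complement genes 14 rose, with a median log2 change over the list of 1.42. Of 18 clotting genes 5 rose, with a median log2 change of 0.67, and the median over all genes tested was -0.06. In CF liver 28 members were called, 27 of them higher, against 16.5% of all genes, 8.58% higher and 7.96% lower, with 18 of 21 complement genes and 9 of 18 clotting genes higher and CD55 lower. The CF medians were 2.10 for complement and 1.13 for clotting, with 0.06 over all genes. The difference between the complement and clotting lists was not itself tested.

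Hepatocyte markers that are no members moved little over the same days. Of 19 measured markers 1 rose in WT liver and 1 in CF liver, with a median log2 change of 0.26 in WT and 0.18 in CF, and their summed level was 208000 to 288000 CPM in the WT fetal groups and 171000 to 319000 CPM in the CF ones. Macrophage markers rose over the same days, 9 of 11 in WT and 8 of 11 in CF. Their summed levels were 377 to 438 CPM at WT d50 and 931 to 997 CPM at WT d120. These markers include the C1q chains C1QA, C1QB and C1QC, which are also counted below among the other complement genes. The part of macrophages in the complement result was not tested. In tissue RNA of this kind, fewer cells of a type and less RNA per cell cannot be told apart.

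**Figure D1:**
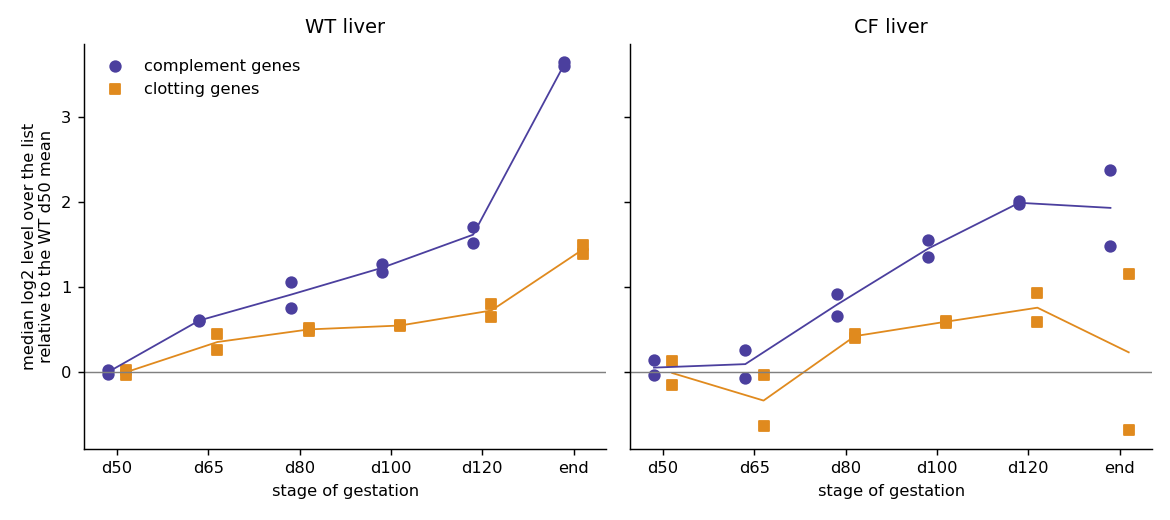
Median log2 level over the 21 complement genes (circles) and 18 clotting genes (squares) in each liver library, relative to the WT d50 mean, by stage (d50 to the end of gestation), with lines through group means. In WT the complement median reaches 3.60 and 3.64 at term against 1.39 and 1.49 for clotting, whereas the CF birth libraries lie at 2.38 and 1.48 for complement and at 1.15 and -0.69 for clotting.

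The median per library shows the same order. Relative to WT d50, the complement median was 1.71 and 1.52 on the log2 scale in the WT d120 libraries and 1.97 and 2.01 in those of CF d120. Clotting genes stood at 0.64 and 0.81 in WT d120 and at 0.58 and 0.93 in CF d120. In each of these 4 libraries the complement median was above the clotting median.

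The initiator proteases of the classical arm, C1R and C1S, form the enzyme core of the C1 complex. In WT liver C1R read 98.7 and 108 CPM at d50, 252 and 393 at d65, 546 and 382 at d80, 471 and 440.0 at d100, then 686 and 723 at d120. In CF liver it read 105 and 109 CPM at d50, 216 and 202 at d65, 526 and 318 at d80, 554 and 599 at d100, then 626 and 623 at d120. The d120 libraries of both genotypes lay above every d50 and d65 library, and the fitted log2 change was 2.34 ± 0.25 (SE) in WT and 2.55 ± 0.25 in CF (edgeR, adjusted p = 2.63e-05 and 6.02e-06). C1S in WT liver read 45.8 and 41.1 CPM at d50, 88.7 and 57.4 at d65, 105 and 122 at d80, 116 and 123 at d100, then 197 and 163 at d120. CF liver gave 42.6 and 52.2 CPM at d50, 25.2 and 23.8 at d65, 75.6 and 50.3 at d80, 109 and 131 at d100, then 284 and 219 at d120 for C1S. Its slope was 1.89 ± 0.24 in WT and 2.90 ± 0.25 in CF, with the CF d65 libraries below those of CF d50.

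MASP2, the lectin pathway protease that cleaves C4 and C2, and MASP1, the protease that activates it, did not run together in WT. MASP2 in WT liver went through 38.9 and 32.9 CPM at d50, 46.4 and 54.6 at d65, 67.7 and 56.5 at d80, 73.8 and 81.4 at d100, then 98.0 and 95.1 at d120. In CF it went through 33.3 and 37.9 CPM at d50, 23.4 and 20.3 at d65, 58.2 and 47.9 at d80, 88.0 and 85.2 at d100, then 109 and 109 at d120. MASP2 rose by 1.37 in WT and 2.10 in CF on the log2 scale. MASP1 stood in WT at 26.2 and 12.5 CPM at d50, 24.2 and 11.2 at d65, 14.0 and 12.6 at d80, 11 and 10.7 at d100, then 20.2 and 25.8 at d120. Its CF values were 10.5 and 12.1 CPM at d50, 5.78 and 7.14 at d65, 9.10 and 9.45 at d80, 9.77 and 8.52 at d100, then 26.9 and 25.2 at d120. The WT slope of MASP1 was -0.02 ± 0.29 and was not called (edgeR, adjusted p = 1.000), the CF slope was 1.25 ± 0.30 (edgeR, adjusted p = 0.00965), and the WT d50 libraries differed from each other by more than the d50 and d120 libraries did on average.

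Among the central components, C2, which supplies the catalytic subunit of the classical C3 convertase, changed most. C2 in WT liver was 2.67 and 2.81 CPM at d50, 5.63 and 4.85 at d65, 11.6 and 7.85 at d80, 12.3 and 10.1 at d100, then 31.4 and 29.6 at d120. In CF liver C2 was 3.61 and 3.25 CPM at d50, 5.04 and 4.56 at d65, 4.78 and 6.52 at d80, 23.2 and 21.8 at d100, then 52.5 and 43.1 at d120. Both genotypes started below 4 CPM and ended above every earlier library, with log2 changes of 3.20 ± 0.26 in WT and 4.0 ± 0.27 in CF (edgeR, adjusted p = 2.85e-06 and 1.81e-07). C3, the protein on which all activation arms converge, was 334 and 292 CPM at d50, 888 and 1092 at d65, 1419 and 1455 at d80, 1649 and 1706 at d100, then 2787 and 3415 at d120 in WT. CF liver had 322 and 290.0 CPM at d50, 667 and 508 at d65, 1498 and 1101 at d80, 1783 and 2077 at d100, then 2871 and 3025 at d120 for C3. Its log2 change was 2.89 ± 0.27 in WT and 3.25 ± 0.27 in CF, and the genotypes' libraries did not overlap at d65 and overlapped at d50 and d120. C5, from which the terminal pathway starts, had a smaller slope in WT, 1.56 ± 0.27, than in CF, 3.73 ± 0.29; its libraries are given with the genotype comparison.

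In the alternative arm, CFB encodes the protease subunit of its convertase, CFD the protease that activates factor B, and CFP properdin, which stabilises the convertase. CFB rose in WT liver through 101 and 129 CPM at d50, 432 and 707 at d65, 871 and 786 at d80, 1139 and 1095 at d100, then 1659.8 and 1768 at d120. In CF it rose through 112 and 79.5 CPM at d50, 370.1 and 214 at d65, 749 and 786 at d80, 906 and 961 at d100, then 969 and 1175 at d120. The log2 changes were 3.41 ± 0.32 and 3.33 ± 0.32 (edgeR, adjusted p = 7.03e-06 and 5.11e-06), and the d120 libraries of WT lay above those of CF. CFD read 133 and 163 CPM at d50, 141 and 279.7 at d65, 198 and 138 at d80, 276 and 248 at d100, then 304 and 341 at d120 in WT. It read 144 and 90.7 CPM at d50, 198 and 146 at d65, 280.0 and 233 at d80, 391 and 527 at d100, then 188 and 302 at d120 in CF. CFD was called in CF, with 1.35 ± 0.38 (edgeR, adjusted p = 0.0219), and not in WT, with 1.05 ± 0.37 (edgeR, adjusted p = 0.127). CFP was called in WT, with 1.19 ± 0.29 (edgeR, adjusted p = 0.0216), and not in CF, with 0.75 ± 0.29 (edgeR, adjusted p = 0.0821). Its WT libraries were 12.2 and 10.8 CPM at d50, 15.0 and 31.0 at d65, 21.8 and 18.0 at d80, 30.5 and 27.9 at d100, then 32.5 and 26.3 at d120. Those of CF were 14.6 and 12.8 CPM at d50, 23.7 and 20.9 at d65, 32.3 and 15.1 at d80, 26.9 and 35.0 at d100, then 19.2 and 27.1 at d120. The CF pair at d80 was farther apart than the d50 and d120 libraries of the same genotype.

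The terminal components, which join one after the other to form the membrane attack pore, held the widest range. C6 was near 1 CPM at d50 and read 1.36 and 0.800 CPM at d50, 3.98 and 0.868 at d65, 2.35 and 1.31 at d80, 6.61 and 9.29 at d100, then 32.8 and 27.9 at d120 in WT. In CF it read 0.856 and 1.21 CPM at d50, 0.163 and 1.02 at d65, 1.46 and 0.297 at d80, 6.16 and 8.25 at d100, then 55.0 and 42.7 at d120. Its log2 change, 4.62 ± 0.65 in WT and 6.09 ± 0.69 in CF (edgeR, adjusted p = 0.000303 and 2.28e-05), was the largest among the members in each genotype, and it rests on d120 levels 27.9 to 55.0 CPM against early levels of a few CPM at most. C7 was 0.501 and 0.554 CPM at d50, 0.688 and 1.29 at d65, 1.52 and 0.484 at d80, 2.65 and 2.63 at d100, then 6.48 and 15.5 at d120 in WT. The CF libraries gave 0.449 and 0.604 CPM at d50, 1.35 and 0.520 at d65, 2.76 and 2.85 at d80, 4.07 and 3.46 at d100, then 14.2 and 14.6 at d120 for C7. It rose by 4.15 ± 0.53 in WT and 4.60 ± 0.54 in CF. C9, the unit that polymerises into the pore, had 43.5 and 28.7 CPM at d50, 300.4 and 301 at d65, 457 and 462 at d80, 416 and 445 at d100, then 423 and 471 at d120 in WT. In CF C9 had 31.6 and 51.6 CPM at d50, 70.6 and 80.1 at d65, 392 and 112 at d80, 467 and 472 at d100, then 567 and 582 at d120. The CF livers at d65 and the second at d80 lay below all WT libraries from d65 on. C8A and C8B, chains of the same C8 protein, were called in CF, with 2.26 ± 0.36 and 1.65 ± 0.37, and not in WT, with 0.61 ± 0.35 and 0.61 ± 0.37 (edgeR, adjusted p = 0.000540, 0.00741, 0.365 and 0.391). C8A read 35.4 and 36.4 CPM at d50, 45.8 and 47.1 at d65, 101 and 86.2 at d80, 42.2 and 32.9 at d100, then 59.1 and 82.9 at d120 in WT. In CF liver it read 22.9 and 32.3 CPM at d50, 24.2 and 47.5 at d65, 97.3 and 68.0 at d80, 91.8 and 70.7 at d100, then 140.4 and 128 at d120. C8B was 42.8 and 47.5 CPM at d50, 102 and 64.2 at d65, 84.4 and 90.3 at d80, 71.5 and 70.3 at d100, then 89.1 and 83.5 at d120 in WT. In CF it was 56.6 and 69.5 CPM at d50, 66.2 and 39.1 at d65, 151 and 92.7 at d80, 138 and 133 at d100, then 150.0 and 184 at d120. For both genes the CF d120 libraries lay above those of WT d120.

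The regulators moved less, and CD55, a membrane protein that breaks up convertases on host cells, moved the other way. C4BPA, a chain of the plasma protein that binds C4, rose by 1.42 in WT and 1.98 in CF. Its libraries read 54.1 and 55.7 CPM at d50, 89.0 and 89.1 at d65, 111 and 114 at d80, 118 and 112 at d100, then 179 and 158 at d120 in WT. They read 53.4 and 77.6 CPM at d50, 58.8 and 45.9 at d65, 105 and 91.6 at d80, 149 and 129 at d100, then 218 and 222 at d120 in CF, where the d65 and d50 libraries overlapped. SERPING1, the C1 inhibitor, rose by 1.70 and 1.73. SERPING1 read 151 and 161 CPM at d50, 205 and 275 at d65, 339 and 264 at d80, 378 and 343 at d100, then 591 and 527 at d120 in WT. In CF it read 195 and 172 CPM at d50, 191 and 123 at d65, 361 and 353 at d80, 338 and 442 at d100, then 478 and 577 at d120. CFI, a protease that inactivates convertase fragments, rose by 0.91 and 1.19, but its WT call (edgeR, adjusted p = 0.0385) was lost in each of the 10 fits that left out 1 library. VTN, which keeps the terminal complex out of membranes, was called in CF alone, with 1.40 ± 0.44 (edgeR, adjusted p = 0.0391), and CLU, which does likewise, in neither. CD55 in WT liver was 22.6 and 29.4 CPM at d50, 23.4 and 32.9 at d65, 27.5 and 22.8 at d80, 28.9 and 25.4 at d100, then 20.6 and 19.8 at d120. In CF liver CD55 was 25.2 and 20.9 CPM at d50, 28.2 and 24.3 at d65, 18.7 and 19.2 at d80, 18.1 and 18.0 at d100, then 9.92 and 8.83 at d120. Its CF d120 libraries lay below all other fetal libraries, with -1.29 ± 0.35 in CF (edgeR, adjusted p = 0.0207) and -0.33 ± 0.35 in WT (edgeR, adjusted p = 0.680). The CF call of CD55 was lost without either CF d120 library and without the first CF d50 library (edgeR, highest adjusted p = 0.112).

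**Figure D2:**
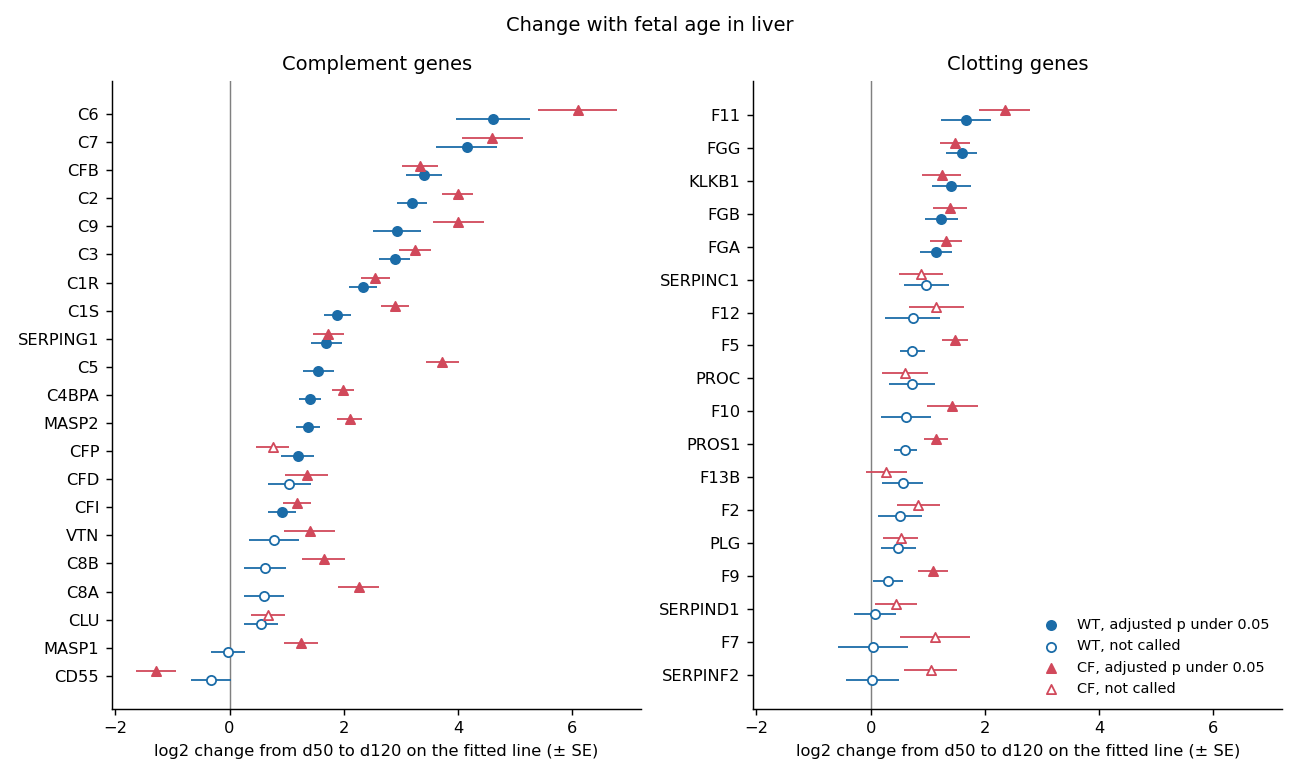
Fitted log2 change from d50 to d120 (horizontal axis, with SE bars) of each complement gene (left) and clotting gene (right) in WT (circles) and CF (triangles) liver; filled symbols passed an adjusted p of 0.05. Complement genes span -0.33 (CD55) to 4.62 (C6) in WT, and clotting genes 0.03 (SERPINF2) to 1.67 (F11).

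Clotting genes had positive slopes in both genotypes throughout, but in WT the called ones belonged to the contact system and to fibrinogen. F11, a contact-phase protease precursor, was 8.38 and 13.3 CPM at d50, 17.3 and 19.9 at d65, 25.5 and 23.1 at d80, 27.7 and 32.4 at d100, then 40.7 and 33.6 at d120 in WT. In CF it was 9.77 and 9.72 CPM at d50, 9.83 and 6.81 at d65, 28.3 and 16.5 at d80, 47.7 and 31.4 at d100, then 32.5 and 37.4 at d120. F11 rose by 1.67 ± 0.44 in WT and 2.34 ± 0.45 in CF (edgeR, adjusted p = 0.0349 and 0.00244), and KLKB1, plasma prekallikrein, by 1.41 ± 0.34 and 1.25 ± 0.34. F12, which starts the contact system, was not called in WT, with 0.74 ± 0.48, or CF, with 1.15 ± 0.48 (edgeR, adjusted p = 0.436 and 0.107). F12 read 54.9 and 47.9 CPM at d50, 50.9 and 70.0 at d65, 99.5 and 71.9 at d80, 74.5 and 89.2 at d100, then 92.8 and 78.8 at d120 in WT. In CF it read 38.7 and 48.5 CPM at d50, 83.3 and 37.2 at d65, 90.9 and 97.0 at d80, 88.1 and 96.7 at d100, then 68.8 and 129.6 at d120. The CF d120 libraries of F12 lay on either side of those of WT d120.

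The fibrinogen chains FGA, FGB and FGG moved together. FGG read 1911 and 1733 CPM at d50, 2820.3 and 2366 at d65, 4069.6 and 3094 at d80, 4054 and 4211 at d100, then 5935 and 5735 at d120 in WT. In CF it read 1849 and 2554 CPM at d50, 2454 and 2271 at d65, 3239.9 and 3346 at d80, 3981 and 3912 at d100, then 5532 and 6632 at d120. FGG rose by 1.59 ± 0.27 and 1.48 ± 0.27, FGA by 1.14 ± 0.28 and 1.31 ± 0.28, and FGB by 1.24 ± 0.29 and 1.39 ± 0.29 in WT and CF. Of the 5 clotting genes called in WT, FGG kept its call in all 14 alternatives, while KLKB1 and FGB lost theirs in 4, FGA in 5 and F11 in 7. The fibrinogen genes lie side by side in the ARS-UI_Ramb_v3.0 sheep assembly, with no other protein-coding gene between them. F13B, the carrier subunit of the fibrin cross-linking factor, had 163 and 177 CPM at d50, 239 and 158 at d65, 153 and 254 at d80, 209 and 155 at d100, then 261 and 309 at d120 in WT. In CF F13B had 143 and 164 CPM at d50, 168 and 119.7 at d65, 189 and 168 at d80, 172 and 187 at d100, then 150.0 and 201 at d120. It had the smallest CF slope of the clotting list, 0.27 ± 0.36 (edgeR, adjusted p = 0.647).

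The vitamin K-dependent proteases F2, F7, F9 and F10 had no call in WT. F10, the enzyme that makes thrombin, was 73.1 and 71.7 CPM at d50, 77.7 and 98.5 at d65, 124 and 114 at d80, 125 and 121 at d100, then 99.2 and 116 at d120 in WT. In CF it was 57 and 43.8 CPM at d50, 69.9 and 46.0 at d65, 113 and 127 at d80, 148 and 157 at d100, then 91.2 and 135 at d120. F10 was called in CF with 1.43 ± 0.44 (edgeR, adjusted p = 0.0353), a call lost in 7 of 14 alternatives, and in WT it had 0.61 ± 0.44. F2, prothrombin, read 590.2 and 631 CPM at d50, 622 and 723 at d65, 839 and 737 at d80, 837 and 723 at d100, then 863 and 922 at d120 in WT. In CF it read 549.6 and 603 CPM at d50, 529.7 and 302 at d65, 691 and 719 at d80, 814 and 907 at d100, then 687 and 969 at d120. Its log2 changes were 0.52 ± 0.38 and 0.84 ± 0.38, neither of them called. F7, the partner of tissue factor, had slopes of 0.04 ± 0.62 in WT and 1.13 ± 0.62 in CF, neither called. In WT it read 64.7 and 31.6 CPM at d50, 51.1 and 42.7 at d65, 57.1 and 44.9 at d80, 53.9 and 54.4 at d100, then 37.7 and 56.2 at d120. F9, the protease activated by factor XI, was called in CF, with 1.1 ± 0.26, and not in WT, with 0.30 ± 0.26. F5, the cofactor of factor X, was called in CF with 1.48 ± 0.23 (edgeR, adjusted p = 0.000429) and had 0.73 ± 0.23 in WT (edgeR, adjusted p = 0.0734). Its WT libraries were 57.6 and 66.4 CPM at d50, 83.6 and 75.6 at d65, 79.6 and 76.0 at d80, 94.1 and 92.1 at d100, then 104 and 112 at d120. In CF they were 60.4 and 83.5 CPM at d50, 23.9 and 32.0 at d65, 84.6 and 81.9 at d80, 100.0 and 91.1 at d100, then 154 and 121 at d120. The CF d65 libraries were the lowest of all fetal libraries for F5.

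Among the inhibitors, PROS1, protein S, rose in CF by 1.14 ± 0.21 (edgeR, adjusted p = 0.00157), through 150.3 and 212 CPM at d50, 156 and 113 at d65, 175 and 197 at d80, 248 and 246 at d100, then 354 and 343 at d120. In WT it read 184 and 160.2 CPM at d50, 236 and 190.3 at d65, 220.2 and 252 at d80, 220.2 and 246 at d100, then 273 and 291 at d120, with a slope of 0.61 ± 0.20 that was not called. SERPINC1, antithrombin, was 1067 and 1216 CPM at d50, 1623 and 1517 at d65, 1899 and 1796 at d80, 1967 and 1900.2 at d100, then 2296 and 2553 at d120 in WT. CF liver read 1089 and 1268 CPM at d50, 1417 and 726 at d65, 1443 and 1783 at d80, 1609 and 1763 at d100, then 1713 and 2341 at d120 for SERPINC1. The slope was 0.97 ± 0.39 in WT and 0.88 ± 0.39 in CF, not called in either (edgeR, adjusted p = 0.182 and 0.129). SERPIND1, heparin cofactor II, had the smallest slopes of this role, 0.08 ± 0.37 and 0.45 ± 0.37, with 400.1 and 278 CPM at d50, 302 and 365 at d65, 485 and 332 at d80, 369 and 357 at d100, then 346 and 361 at d120 in WT. Its CF values were 307 and 298 CPM at d50, 319.8 and 221 at d65, 432 and 419 at d80, 445 and 508 at d100, then 275 and 415 at d120. PLG, the precursor of the fibrin-dissolving enzyme plasmin, and SERPINF2, its inhibitor, were not called in either genotype. PLG was 1437 and 1444 CPM at d50, 1726 and 1495.5 at d65, 1750.3 and 1635 at d80, 1661 and 1704 at d100, then 2072 and 2214 at d120 in WT. In CF it was 1208 and 1547 CPM at d50, 1490.0 and 1042 at d65, 1672 and 1505 at d80, 1556 and 1511 at d100, then 1841 and 2091 at d120. Its d120 libraries lay above every other fetal library in both genotypes. SERPINF2 was 449 and 268 CPM at d50, 545 and 299.6 at d65, 353 and 315 at d80, 299 and 347 at d100, then 417 and 414 at d120 in WT. In CF it was 235 and 437 CPM at d50, 203 and 114 at d65, 173 and 284 at d80, 263 and 263 at d100, then 538 and 664 at d120. The WT d50 libraries of SERPINF2 lay on either side of its WT d120 libraries.

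Of 20 other complement genes tested, 11 rose in WT and none fell, and 13 rose in CF. MBL2, a lectin that starts the lectin arm, rose by 6.25 ± 1.08 in WT and 7.88 ± 1.16 in CF. CR2, a complement receptor of B cells, was called in both genotypes and went from 0 counts in both WT d50 libraries to 10.8 and 6.38 CPM at d120. C4A rose by 2.84 ± 0.27 in WT and 3.45 ± 0.27 in CF, but C4 has near-identical copies between which counting may split reads, so its level is uncertain. Of 28 other clotting genes, 2 rose (F8 and PLAT) and 1 fell (F13A1) in WT, and 11 rose and 1 fell in CF. In CF the largest were F3, tissue factor, with 3.11 ± 0.90, and SERPINE2, a thrombin inhibitor, with 2.68 ± 0.58. F13A1, the catalytic subunit of the cross-linking factor, fell by 1.83 on the log2 scale in WT and by 2.52 in CF.

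**Figure D3:**
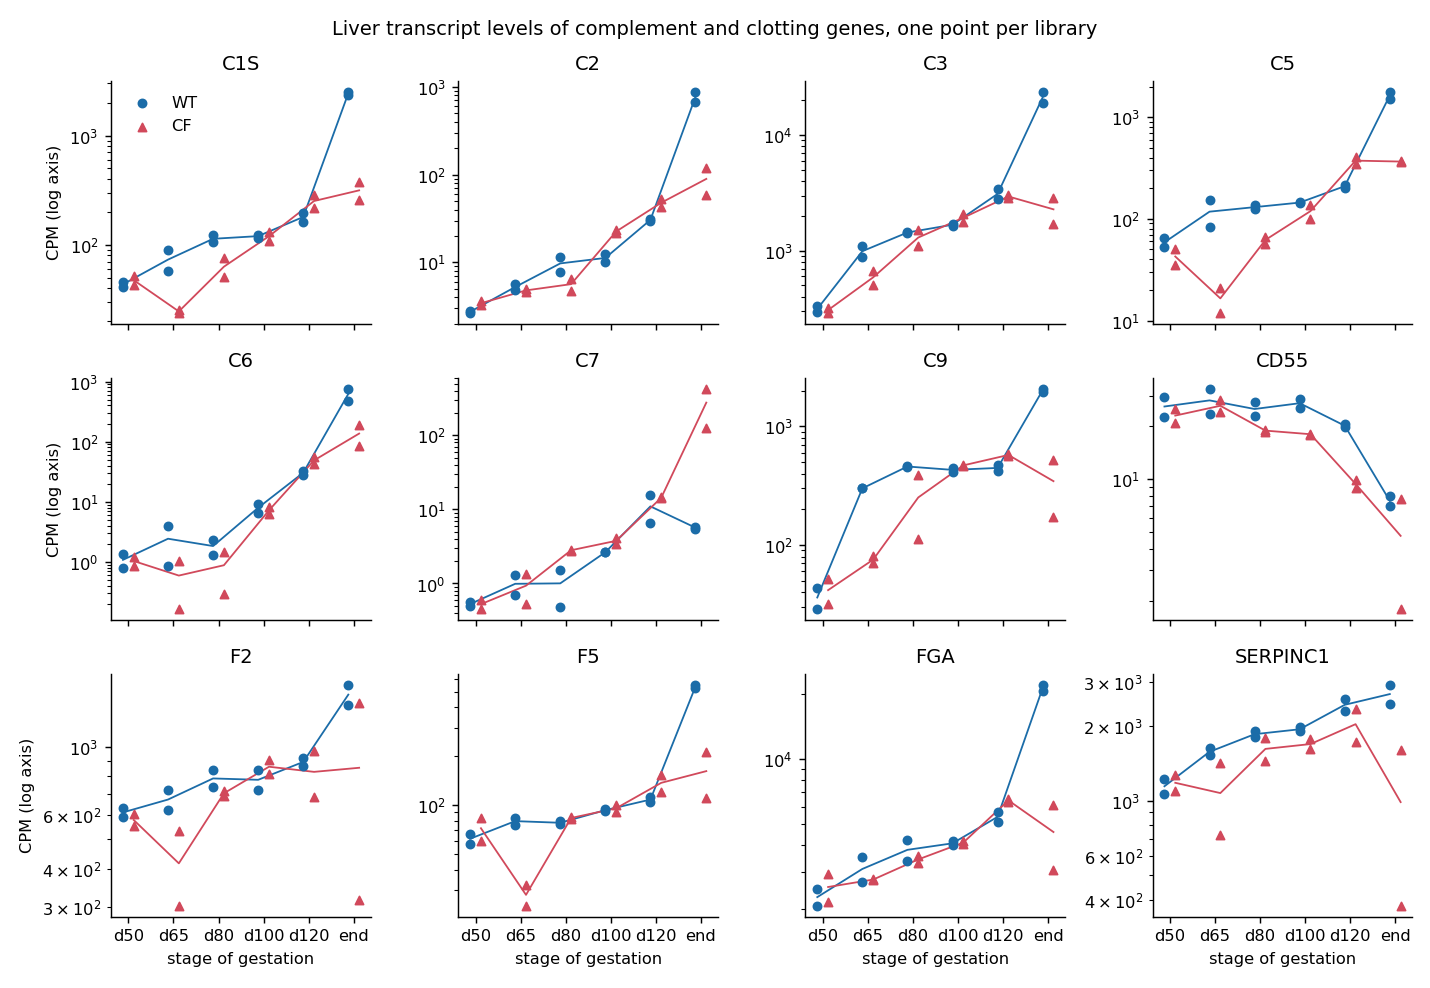
Liver level in CPM on a log axis of 12 complement and clotting genes by stage, one point per library (circles WT, triangles CF), with lines through the group means. WT term libraries lie far above WT d120 for C1S, C2, C3, C5, C6, C9, F5 and FGA, while C7 is high in the CF birth libraries alone, at 125 and 428 CPM.

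Whether the climb differed between genotypes was asked with the difference of the slopes. None of the 39 members was called by edgeR, where 0.00606% of all genes were, with 8 at an unadjusted p under 0.05 and 1 called by DESeq2. C5 had the largest difference, 2.17 ± 0.38 steeper in CF (edgeR, adjusted p = 0.116). Members called in one genotype and not in the other, such as MASP1, C8A and F5, were therefore not shown to differ in slope.

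Averaged over d50 to d120, CF and WT liver differed in 1 of the 39 members, C5, against 2.54% of all genes called and 1.69% called lower. C5 was 64.7 and 52.9 CPM at d50, 153 and 82.4 at d65, 124 and 136 at d80, 142 and 147 at d100, then 202 and 217 at d120 in WT. In CF it was 35.0 and 50.3 CPM at d50, 21.1 and 11.9 at d65, 66.9 and 57.1 at d80, 138 and 101 at d100, then 402 and 345 at d120. The CF libraries lay below the WT ones at d50, d65, d80 and d100 and above them at d120. The mean difference was -0.76 ± 0.13 on the log2 scale (SE, edgeR, adjusted p = 0.00360), and with libraries of a donor-number stem summed to 1 unit the call was lost (edgeR, adjusted p = 0.145, the highest of 25 alternatives, the lowest being 3.88e-06). The clotting list had no call, with none of its 18 genes at an unadjusted p under 0.05 by edgeR, and DESeq2 called 3 members in all. MASP1 came nearest to the threshold among the others, with -0.56 ± 0.15 (edgeR, adjusted p = 0.0513). Among the other genes of the pathways, F2RL2, a protease-activated receptor, was higher by 2.21 at levels under 1 CPM in every fetal library, PLAU, the urokinase gene, was lower by -0.70, and FCN1, a ficolin of the lectin arm, by -1.29 (edgeR, adjusted p = 0.0306, 0.00903 and 0.00182).

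Within single stages the genotypes differed at d65. At that stage 6 members were lower in CF, 5 complement genes and F5, against 1.65% of all genes called and 1.42% called lower, and 38 of 39 had a log2 difference below 0. The median difference was -0.66 over complement and -0.51 over clotting genes, with -0.12 over all genes. C5 was 153 and 82.4 CPM in WT and 21.1 and 11.9 CPM in CF, a log2 difference of -2.83 ± 0.32 (edgeR, adjusted p = 0.000409). C9 was 300.4 and 301 CPM against 70.6 and 80.1 CPM, a difference of -2.0 ± 0.48. Both pairs of libraries were clear of each other. C1S was 88.7 and 57.4 CPM in WT and 25.2 and 23.8 CPM in CF, with -1.58 ± 0.27. F5 was 83.6 and 75.6 CPM in WT and 23.9 and 32.0 CPM in CF, with -1.51 ± 0.26. The lectin proteases differed likewise, MASP1 with 24.2 and 11.2 CPM against 5.78 and 7.14 CPM and -1.46 ± 0.34, MASP2 with 46.4 and 54.6 CPM against 23.4 and 20.3 CPM and -1.21 ± 0.24 (edgeR, adjusted p = 0.0372 and 0.0209). The fibrinogen chains did not show this, with -0.16 for FGA, 0.22 for FGB and -0.13 for FGG, none called. The C5 call held in each leave-out, but the count fell to 1 without the first WT d65 or the first CF d65 library and to 2 without the second CF d65 library, and was 7 without the second WT library, whose donor number is also on a CF d100 liver. The 2 CF libraries share a donor-number stem. Of the other genes of the pathways C4A was called at d65, with -1.27 ± 0.29, subject to the same doubt over its copies. Hepatocyte markers had no call at d65, with a median difference of -0.22.

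At d50, d80, d100 and d120 no member was called by edgeR. At an unadjusted p under 0.05 there were 1, 4, 3 and 5 members, DESeq2 called 1 at d80 and none at the other stages, and edgeR called 0%, 0.0727%, 0.0424% and 0.0242% of all genes. Of these, 0.0303% at d80 and 0.0303% at d100 were higher in CF, and 0.0424% at d80 and 0.0121% at d100 lower. The complement median difference went from -0.18 at d80 to 0.13 at d100 and 0.18 at d120. The clotting median was -0.14, 0.06 and 0.07 at the same stages.

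Around birth, complement transcripts of WT liver rose steeply. From d120 to term 22 members were higher and 1, CD55, was lower, where 35.4% of all genes were called, 16.9% higher and 18.5% lower. This comprised 15 of 21 complement genes, with a median log2 change of 1.92, and 7 of 18 clotting genes, with a median of 0.94. The comparison crosses the change in library numbering, so stage and library set cannot be told apart. Hepatocyte markers went both ways, with 5 higher and 4 lower of 19 and a median of 0.39, and all 9 erythroid markers fell, with summed levels of 4200 to 5760 CPM at d120 and 34.3 to 37.0 CPM at term. Macrophage markers rose in 6 of 11.

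C2 went from 31.4 and 29.6 CPM at d120 to 871 and 666 CPM at term, a log2 change of 4.66 ± 0.32 (edgeR, adjusted p = 9.76e-09). C1S went from 197 and 163 CPM to 2373 and 2501 CPM, with 3.76 ± 0.29. C6 went from 32.8 and 27.9 CPM to 482 and 765 CPM, with 4.36 ± 0.72. Each of these genes was higher in both term libraries than in any fetal library. C3 reached 18840.4 and 23622 CPM from 2787 and 3415 CPM, and C4BPA 1240.1 and 1310.1 CPM from 179 and 158 CPM, with 2.78 ± 0.31 and 2.92 ± 0.23. Among clotting genes, F5 went from 104 and 112 CPM to 549 and 526 CPM, with 2.31 ± 0.27, and FGG from 5935 and 5735 CPM to 25381 and 25250.3 CPM, with 2.12 ± 0.31. FGA and FGB rose by 1.99 and 1.99, and F9 by 1.62. F2, F7, F12, PROC, SERPINC1 and SERPIND1 were not called, with log2 changes between -0.40 (PROC) and 0.73 (F2).

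In CF liver few members changed over the same interval. From d120 to birth 4 members were called, against 14.7% of all genes, 6.34% higher and 8.39% lower: C7 and C2 higher, CFI and CLU lower. C7 went from 14.2 and 14.6 CPM to 125 and 428 CPM, with 4.27 ± 0.57, and C2 from 52.5 and 43.1 CPM to 119.5 and 59.1 CPM, with 0.90 ± 0.28. CFI went from 1157 and 1216 CPM to 747 and 346 CPM, with -1.12 ± 0.28, and CLU from 1767 and 2159 CPM to 895 and 380.0 CPM, with -1.62 ± 0.34 (edgeR, adjusted p = 0.0105 and 0.00334). The second birth library was the lower one for C2, CFI and CLU and the higher one for C7. None of the 18 clotting genes was called by edgeR, with 4 at an unadjusted p under 0.05, and DESeq2 called 6 members in all. C3 was 2871 and 3025 CPM at d120 and 2859 and 1701 CPM at birth, and FGG 5532 and 6632 CPM and 5021 and 2875 CPM. Neither gene's birth libraries lay above those of d120. Without the first CF birth library 22 members were called, 21 of them lower, without the second 7, and without the second CF d120 library 2.

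**Figure D4:**
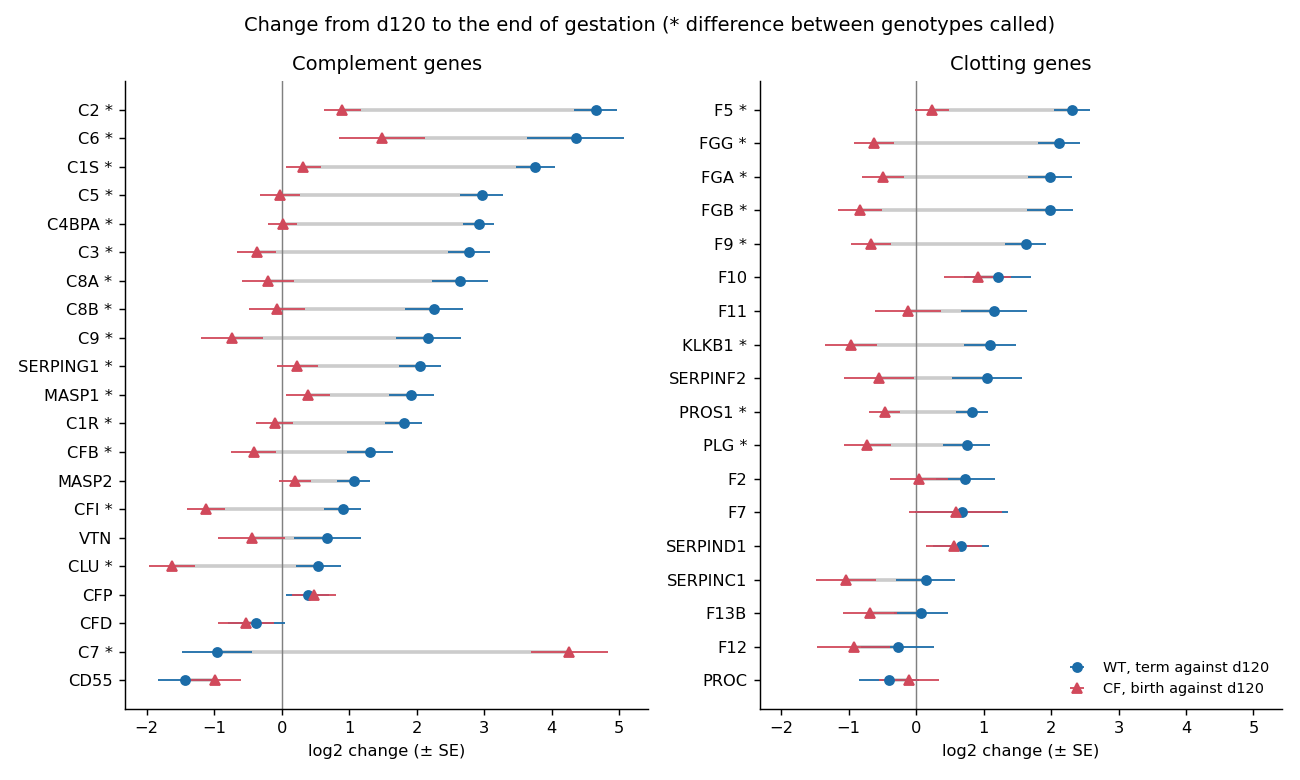
Log2 change from d120 to the end of gestation (horizontal axis, with SE bars) of each complement gene (left) and clotting gene (right) in WT (circles) and CF (triangles) liver, joined by a grey line; a star marks members whose change differed between genotypes at an adjusted p of 0.05. WT changes run up to 4.66 (C2), whereas the CF medians are -0.06 for complement and -0.52 for clotting, with C7 at 4.27.

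A test of the difference between these changes, added after the data were seen, called 24 members, 23 of them lower in CF, against 21.1% of all genes, 10.3% lower and 10.8% higher. These were 15 complement genes lower and C7 higher of 21, and 8 clotting genes lower of 18, with medians of -2.02 and -1.28 and 0.03 over all genes. C2 differed by -3.75 ± 0.40, C1S by -3.44 ± 0.38 and C3 by -3.15 ± 0.42 (edgeR, adjusted p = 1.58e-05, 2.24e-05 and 0.000109). FGB differed by -2.82 ± 0.47, FGG by -2.74 ± 0.43 and FGA by -2.48 ± 0.45. With the mean hepatocyte marker level of each library in the model, 22 members were called, 19 lower and 3 higher. Each group keeps its own mean in that model, so the adjustment is set by differences within pairs. The CF birth pair differed most, at 0.0779 and -1.62 on the centred log2 scale. Such a fit cannot separate hepatocyte content from genotype. The share of all genes called under it is not given here. Counts over libraries left out ran from 20 to 35.

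At the end of gestation itself, CF liver was lower than WT liver in most members. Of 39, 27 were lower and C7 was higher, against 33.7% of all genes, 16.8% lower and 17% higher, with 16 of 21 complement genes lower (median -1.93) and 11 of 18 clotting genes lower (median -1.40). The WT libraries here are those of the perinatal change, so both comparisons share them. Hepatocyte markers were lower in 12 of 19 (median -1.13), fibroblast markers higher in 7 and lower in 1 of 8, endothelial markers higher in 7 of 8, bile duct markers higher in 7 and lower in 1 of 12, and macrophage markers lower in 6 of 11. Without the second CF birth library 23 members were called and the hepatocyte sum of the remaining library was 135000 CPM. With the hepatocyte marker level in the model 24 were called, 18 lower and 6 higher.

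In the classical and lectin arms, C1R was 2105 and 2824 CPM at WT term and 642 and 520.5 CPM at CF birth, with -2.08 ± 0.28. C1S was 2373 and 2501 CPM against 257 and 373 CPM, with -2.95 ± 0.28 (edgeR, adjusted p = 3.38e-05 and 1.50e-06). MASP1 was 103 and 72.4 CPM against 29.1 and 39.4 CPM, and MASP2 183 and 223 CPM against 164 and 86.3 CPM. The WT and CF libraries were separate in all 4 genes, narrowly so for MASP2. The MASP2 call was lost without the second WT term or second CF birth library and with the hepatocyte level in the model, and that of MASP1 without the first WT term library.

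C3 and C2 had the most negative differences of the members. C2 was 871 and 666 CPM against 119.5 and 59.1 CPM, with -3.10 ± 0.30. C3 was 18840.4 and 23622 CPM against 2859 and 1701 CPM, with -3.22 ± 0.32 (edgeR, adjusted p = 1.48e-06 and 1.75e-06). C5 was 1764 and 1508 CPM against 373 and 359 CPM, with -2.16 ± 0.31. The CF libraries of C5 were close to each other although their hepatocyte sums differed. CFB, the only alternative pathway member called, was 3798 and 4686 CPM against 1082 and 527 CPM, with -2.40 ± 0.35.

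Of the terminal genes, C6 was 482 and 765 CPM against 187 and 85.6 CPM, C8A 437 and 449 CPM against 177 and 56.2 CPM, and C8B 378 and 448 CPM against 253 and 66.5 CPM. C9 was 1952 and 2086 CPM against 517 and 174 CPM, with -2.55 ± 0.48. C6, C8A, C8B and C9 lost their calls with the hepatocyte level in the model, where C9 had an adjusted p of 0.0508 (edgeR). That adjustment leans on the difference between the CF birth libraries themselves. C7 ran the other way at 5.46 and 5.86 CPM in WT and 125 and 428 CPM in CF, with 5.61 ± 0.61 (edgeR, adjusted p = 4.63e-06). C7 kept its call in all 8 alternatives, with log2 differences from 4.42 to 6.23, and the CF library with the lower hepatocyte sum had the higher C7. Fibroblast markers, summed, were 280 to 412 CPM at WT term and 1810 to 3420 CPM at CF birth, and their part in C7 was not tested. C6 and C7, which lie near each other with 1 protein-coding gene between them, thus changed in opposite directions.

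Regulators were lower as well. C4BPA was 1240.1 and 1310.1 CPM against 256 and 189.9 CPM, with -2.51 ± 0.23 (edgeR, adjusted p = 8.70e-07). CFI was 1898 and 2046 CPM against 747 and 346 CPM, and CLU 2085 and 2849.9 CPM against 895 and 380.0 CPM. SERPING1 was 1915 and 2698 CPM against 813 and 427 CPM, with -1.90 ± 0.31. All of these kept their calls in every alternative run. VTN, CD55, CFD and CFP were not called.

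Fibrinogen led the clotting genes. FGA was 20684 and 22099.5 CPM against 6116 and 3047 CPM, with -2.22 ± 0.33. FGB was 33573 and 35211 CPM against 8309 and 3857 CPM and FGG 25381 and 25250.3 CPM against 5021 and 2875 CPM, with -2.50 ± 0.34 and -2.68 ± 0.32 (edgeR, adjusted p = 3.79e-05 and 8.94e-06). Their calls held in all 8 alternatives. F5 was 549 and 526 CPM against 213 and 111 CPM and F9 668 and 584 CPM against 228 and 116 CPM, also called in all 8. KLKB1 was 197 and 161 CPM against 64.3 and 17.3 CPM, with -2.13 ± 0.40. F11 at 105 and 60.8 CPM against 54.3 and 10.3 CPM, F13B at 296 and 305 CPM against 172 and 47.0 CPM, and SERPINC1 at 2445 and 2911 CPM against 1594 and 378 CPM lost their calls without the second CF birth library and with the hepatocyte level in the model. PLG at 3416 and 3800.0 CPM against 1775 and 606 CPM and PROS1 at 499 and 503 CPM against 298 and 208 CPM lost theirs with that level in the model.

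F7, F10, F2, PROC and SERPIND1 differed widely between the CF birth libraries, as did SERPINC1 above. Both CF birth libraries of F9, PROS1 and SERPINC1 lay below both WT libraries. F7 was 63.6 and 86.3 CPM at WT term and 145 and 9.15 CPM at CF birth. F10 was 224 and 275 CPM against 372 and 55.3 CPM, F2 1370.0 and 1591 CPM against 1393 and 315 CPM, PROC 356 and 466 CPM against 569 and 160.1 CPM and SERPIND1 423 and 704 CPM against 797 and 224 CPM. In F7, F10, PROC and SERPIND1 the first CF library lay above both WT libraries and the second below both, so the genotypes could not be separated. F12 and SERPINF2 were not called either.

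Other complement genes were lower in 11 and higher in 1 of 20, led by MBL2 with -3.56 ± 1.06 and CFHR5 with -3.27 ± 0.34, while COLEC11, a collectin of the lectin arm, was higher by 0.85. Those lower also included FCN1, the C3a receptor gene C3AR1, C4BPB, C4A, the carboxypeptidase N subunits CPN1 and CPN2, and the C1q chains C1QA and C1QB, from -2.89 (FCN1) to -1.01 (C1QB) on the log2 scale. Other clotting genes were higher in 12 and lower in 8 of 28, a list that shares VWF with the endothelial markers. VWF, the platelet-binding factor of endothelium, was 3.77 and 7.11 CPM at WT term and 59.8 and 143 CPM at CF birth, with 4.22 ± 0.45, and THBD, thrombomodulin, was 8.56 and 6.18 CPM against 24.1 and 96.6 CPM, with 3.03 ± 0.46 (edgeR, adjusted p = 3.85e-06 and 8.44e-05). Those higher also included the receptors F2RL1, PROCR and PLAUR, tissue factor F3, F13A1, ANXA2, the plasminogen activator PLAT and the inhibitors SERPINE2 and TFPI2, from 0.83 (ANXA2) to 4.28 (F2RL1). Those lower, from -1.98 (A2M) to -0.98 (LMAN1), were A2M, KNG1, CPB2, SERPINA5 and SERPINA10, plasma proteins of hepatocytes, GGCX, the vitamin K-dependent carboxylase, and MCFD2 and LMAN1, the receptor pair that carries factors V and VIII out of the endoplasmic reticulum.

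In gallbladder the libraries differed widely in hepatocyte RNA, and most members differed with it. The 18 hepatocyte markers measured there summed to 240000 to 243000 CPM in the WT d100 libraries, and to 96400 to 162000 CPM at WT d120, 18300 to 46800 CPM at WT birth, 5150 to 7540 CPM at CF d80, 3740 to 4950 CPM at CF d100 and 1830 to 67200 CPM at CF d120. Bile duct markers were present in every library, with sums of 2610 to 11500 CPM. As a median share of the level in liver of the same genotype and stage, hepatocyte markers stood at 93.3% and 94.2% in WT d100 and at 0.026% and 0.088% in the first CF d80 and first CF d120 libraries. The WT d100 gallbladder libraries thus held hepatocyte markers at the level of liver, together with bile duct markers at 2860 to 3040 CPM, where WT d100 liver had 687 to 703 CPM.

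Clotting genes stood close to the hepatocyte markers. Their median share of the liver level was 102% and 99.2% in WT d100, 30.9% and 25.1% in WT d120, 32.9% and 8.82% in WT birth, 0.0872% and 1.67% in CF d80, 1.78% and 1.46% in CF d100, and 0.0465% and 27.2% in CF d120. Complement genes stood higher in the CF libraries. Their median share was 111% and 111%, 49.4% and 43.6%, 31.0% and 11%, 44.5% and 14.8%, 22.9% and 25.0%, and 22.1% and 50.8% in the same libraries. Liver and gallbladder tables were made and scaled separately, so these shares are a description and were not tested. Set against the liver of the same donor number instead of the group mean, in the 4 libraries where columns allow it, the complement median was 47.1% for the first WT d120 library, 11.4% for the second WT birth, 53.9% for the first CF d80 and 23.4% for the first CF d120. In the same order the clotting median was 34.8%, 7.97%, 0.0877% and 0.0419%, and that of hepatocyte markers 43.9%, 8.17%, 0.0265% and 0.0771%.

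**Figure D5:**
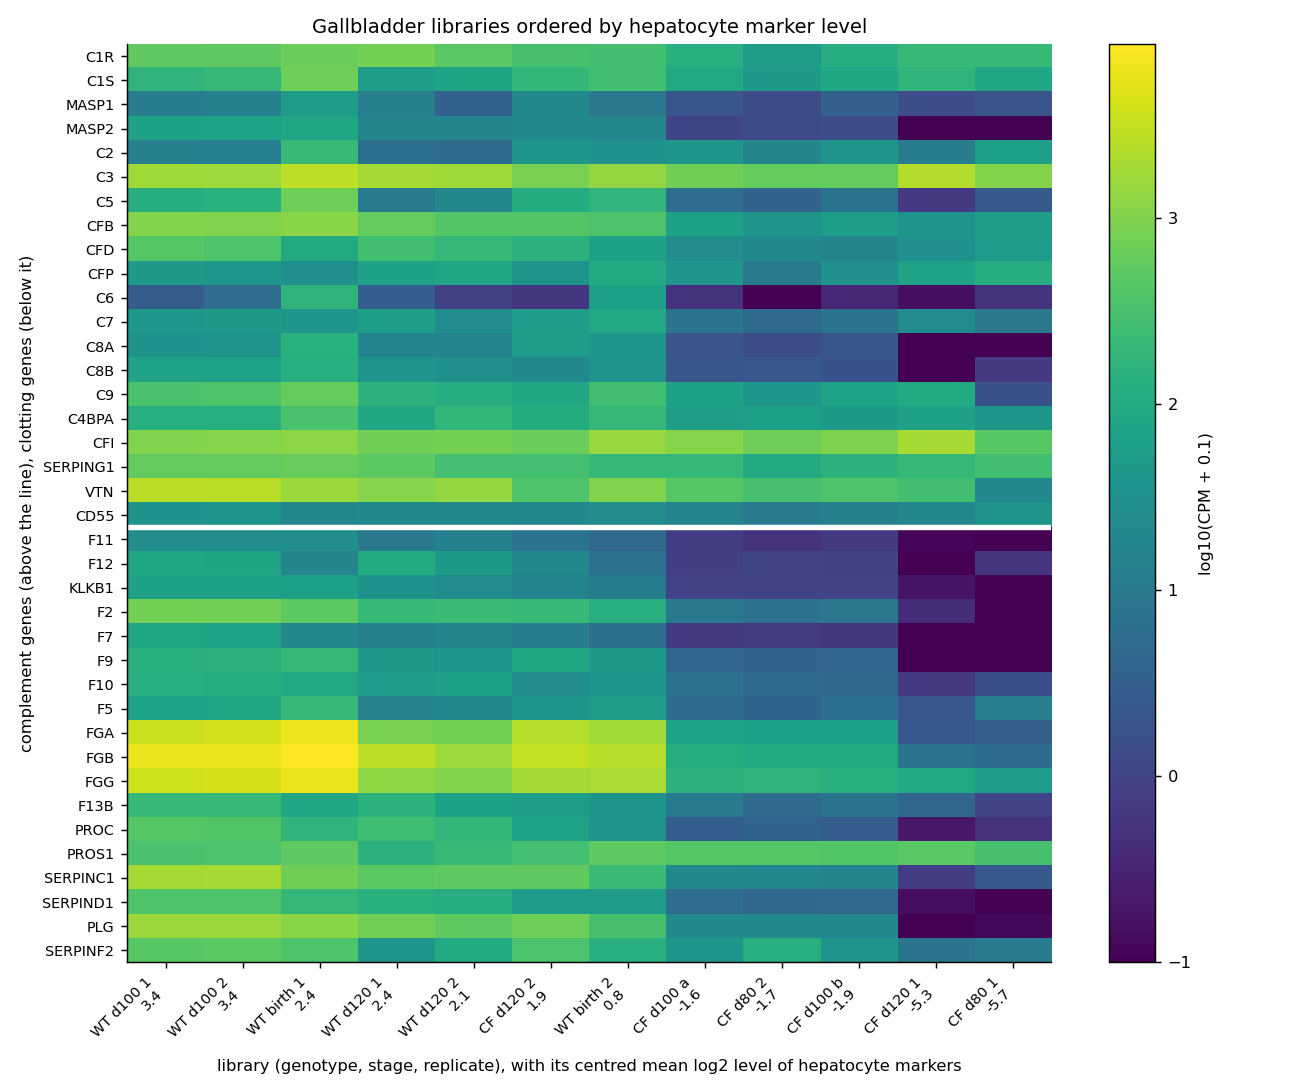
Level of each member, as log10 of CPM plus 0.1 (colour), in the 12 gallbladder libraries, ordered from highest (left) to lowest (right) by the centred mean log2 level of hepatocyte markers, which is printed under each name. Clotting genes darken toward the right except PROS1 and, in part, FGG. In the libraries with the lowest marker means, C1R, C1S, C3, CFI, SERPING1 and CD55 keep a colour close to that of the other libraries.

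The first CF d80 and first CF d120 libraries had the lowest mean log2 level of hepatocyte markers and show which members remained. By summed level, the CF d100 libraries were below those of CF d80. The highest single hepatocyte marker stood at 178% and 87.9% of the liver mean in the 2 libraries. Complement genes above all markers were C2, CFP, C7 and CD55 in the first, and CFP, C7, CFI and CD55 in the second. C3, C1R, C1S and SERPING1 lay within the marker range in both. C3 was 1058 CPM in the first CF d80 library and 2277 CPM in the first CF d120 library. In the same order CFI was 444 and 1921 CPM, C1R 203 and 203 CPM, C1S 83.2 and 168 CPM and SERPING1 275 and 198 CPM. As shares of the liver mean, C2 stood at 1060% and 25.8%, CFP at 508% and 298%, C7 at 316% and 165% and CD55 at 195% and 201%. The CF d80 liver levels of C2 and C7 were low. PROS1, at 309 and 462 CPM, stood at 166% and 133% of the liver mean, the highest shares among the clotting genes. FGG was 52.9 and 94.7 CPM, where FGA was 3.13 and 2.16 CPM and FGB 5.18 and 7.67 CPM. The share of the liver mean was 1.61% and 1.56% for FGG, 15.4% and 1.54% for F5 and 4.9% and 1.31% for SERPINF2. F10 was 1.41 and 0.555 CPM, PROC 0.394 and 0.111 CPM and SERPINC1 2.37 and 0.703 CPM. Of the terminal genes, C5 was 2.39 and 0.555 CPM and C9 1.58 and 106 CPM, while C7 was 8.87 and 23.7 CPM. The lectin proteases were not among those that remained, with MASP1 at 1.77 and 1.35 CPM and MASP2 at 0 counts in both libraries.

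Averaged over d100 and d120, the stages with both genotypes, 15 of 38 members were called, 14 lower in CF and C2 higher, against 43.7% of all genes, 20.1% lower and 23.6% higher. The share of members called in either direction was 39.5%, so members were not called more often than genes at large. Their calls were nearly all lower in CF, whereas those of all genes went both ways. Complement genes were lower in 7 and higher in 1 of 20 (median -1.27), clotting genes lower in 7 of 18 (median -3.37), and hepatocyte markers lower in 6 of 18 (median -3.10). Erythroid markers were lower in 6 of 9 and fibroblast markers higher in 2 of 8, and their part was not tested. With the hepatocyte marker level in the model 3 members were called, all higher in CF. That adjustment too is set by differences within pairs. The widest pair was CF d120, at -5.34 and 1.873 on the centred log2 scale, so hepatocyte content and genotype are not separated by it. The d100 libraries of WT carry donor numbers that differ only in a final letter, and the columns of CF d100 share a library number. Each pair may thus come from 1 animal, which the labels do not settle, and the p-values treat them as replicates. With each pair summed to 1 unit, the edgeR calls of members were lost.

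Called complement genes included CFD, at 436 and 369 CPM in WT d100 and 277 and 189.7 CPM in WT d120 against 26.2 and 17.6 CPM in CF d100 and 30.6 and 148 CPM in CF d120, with -2.79 ± 0.51 (edgeR, adjusted p = 0.00623). CFB was 1024 and 1006 and 565 and 414 CPM in these WT groups and 67.5 and 59.5 and 35.5 and 419 CPM in those of CF. C1R was 541 and 504 and 802 and 468 CPM in WT and 138 and 117 and 203 and 313 CPM in CF. All CF libraries of CFD and C1R were below all WT libraries, whereas the second CF d120 library of CFB, the one with most hepatocyte RNA in CF, came within the WT range. VTN was 2613 and 2582 and 1086 and 1335 CPM in WT and 438 and 372 and 273 and 379 CPM in CF. C4BPA was 122 and 128 and 92.3 and 184 CPM in WT and 56.3 and 49.5 and 67.3 and 113 CPM in CF, with overlap between the genotypes. C7 was 42.3 and 46.7 and 57.4 and 25.5 CPM in WT and 7.94 and 7.65 and 23.7 and 53.2 CPM in CF. C6 was 2.75 and 5.64 and 2.91 and 0.813 CPM in WT and 0.435 and 0.274 and 0.0555 and 0.501 CPM in CF, low in both. C2 was the exception, at 13.7 and 13.5 and 6.37 and 5.56 CPM in WT and 41.5 and 36.1 and 12.4 and 40.9 CPM in CF, with 1.83 ± 0.61 (edgeR, adjusted p = 0.0391). Its call was lost in 9 of 13 alternatives.

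The called clotting genes were F7, F10, F12, F13B, FGG, KLKB1 and PROC, with log2 differences from -4.92 (PROC) to -2.50 (FGG). PROC, the anticoagulant protein C, was 429.8 and 391 CPM in WT d100, 248 and 186 CPM in WT d120, 2.91 and 2.60 CPM in CF d100 and 0.111 and 70.4 CPM in CF d120. In the same groups F12 was 85.0 and 76.5, 105 and 49.7, 0.732 and 0.802 and 0 and 22.2 CPM. The second CF d120 library was the highest of the CF libraries in both genes. F10 was 131 and 121, 52.2 and 64.5, 6.83 and 4.44 and 0.555 and 26.6 CPM in that order. F7 was 81.2 and 72.2, 13.9 and 17.2, 0.575 and 0.509 and 0 and 11.7 CPM. KLKB1 was 65.3 and 65.9, 33.7 and 24.8, 0.871 and 0.900 and 0.0925 and 16.6 CPM. The same split within CF d120 held for these 3 genes, so the size of the difference depends on that library. F13B was 199 and 202, 158 and 68.0, 10.2 and 7.75 and 4.23 and 58.0 CPM. FGG was 3859 and 4148, 1223 and 1059, 157 and 135 and 94.7 and 1865 CPM. PROS1 was not called, with 0.63 ± 0.26 (edgeR, adjusted p = 0.0743). Without the second CF d120 library 29 members were called, without the first WT d120 library 6, and without either WT d100 or either CF d100 library 1 or 2.

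Other complement genes were called lower in 6 and higher in 3 of 18 and other clotting genes lower in 6 and higher in 4 of 28. TFPI2, a serine protease inhibitor, was higher by 2.20, while A2M, a broad protease inhibitor of plasma, was lower by -3.33 and CPN1, a carboxypeptidase that trims complement peptides, by -4.48 (edgeR, adjusted p = 0.00961, 0.00389 and 0.0354). Those higher also included CR2, the C5a receptor gene C5AR2, the thrombin receptor gene F2R, PLAU and THBD, from 0.68 (THBD) to 1.75 (C5AR2). Also lower were CPN2, FCN1, C4BPB, COLEC11, CD59, SERPINA5, KNG1, PROCR, CPB2 and VKORC1, from -4.06 (FCN1) to -0.73 (CD59).

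In WT gallbladder, birth differed from the fetal stages in 4 members, C6, C2, C1S and PROS1, all higher, against 27.1% of all genes, 16% higher and 11.1% lower. C6 was 163 and 62.1 CPM at birth, with 5.34 ± 1.05. C2 was 208 and 34.2 CPM, with 3.75 ± 0.72, and C1S 689 and 281 CPM, with 2.14 ± 0.38 (edgeR, adjusted p = 0.0152, 0.0146 and 0.0123). As shares of the WT term liver mean, the birth libraries stood at 26.1% and 9.96% for C6, 27.1% and 4.46% for C2 and 28.3% and 11.5% for C1S, where the median of hepatocyte markers was 30.5% and 8.97%. The part of hepatocyte RNA in these rises was not tested. PROS1 was 540.5 and 516 CPM at birth against 329.5 and 349 CPM at d100 and 151 and 223 CPM at d120. Without the first birth library or either WT d100 library edgeR called no member, and without the second birth library it called 2. Hepatocyte level in the model gave 12 members, all higher.

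Within CF gallbladder, d100 and d120 together did not differ from d80 in any member by edgeR, where 0.00534% of all genes were called. There were 3 members at an unadjusted p under 0.05, DESeq2 called none, and without the second CF d80 library 3 were called. PLG was 22.9 and 18.7 CPM at d100 and 0 and 695 CPM at d120, so that the d120 pair enclosed the d100 pair.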

How the data were processed

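Total RNA from frozen liver and gallbladder was extracted with TRIzol and sequenced, per the labels' protocols. The 2 deposited gene tables, 1 per tissue, hold the authors' estimated counts, whose values need not be whole. The liver table is named for TPM, yet its columns sum to between 29705597 and 56808639, so whether its counts were rescaled for length is not settled. Of values above 0, 0.175% to 0.493% were whole in the liver libraries and 85.6% to 93.5% in the gallbladder ones. The 2 tables may therefore hold different kinds of value, which also limits the shares of gallbladder against liver. Tools named in the submitters' processing notes, with no role, are Salmon (1.9.0 and 1.10.1), DESeq2, limma, edgeR and STAR (2.7.9a). Build and annotation: not given in the sources used here. The 6 chromatin libraries were not analysed here.

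Estimated counts were rounded and tested in edgeR 4.0.16 (R 4.3.3): TMM scaling, filterByExpr, a quasi-likelihood fit with 1 mean per group over all libraries of a tissue, and Benjamini-Hochberg adjustment over all genes tested, with a threshold of 0.05. The change from d50 to d120 is the linear trend over the 5 fetal stages. SE is the log2 change divided by the square root of F. Locus numbers were given symbols from the ARS-UI_Ramb_v3.0 annotation, 127 in liver and 508 in gallbladder. Alternatives were DESeq2 1.42.0 as a test and as scaling, no filter, the mean hepatocyte marker level as a covariate, and each library left out. Liver libraries of a donor-number stem were also summed. A further alternative, chosen after seeing the data, summed the d100 gallbladder libraries of each genotype. The test of the perinatal difference and the shares by donor number were also added after the data were seen. On simulated data, 73% of 2-fold and 98% of 4-fold changes were called for the liver fetal mean, and 7% and 52% for the gallbladder mean. No replicate pair agreed within sampling noise. The 2 gallbladder columns of CF d100 name their group but not a sample, and stand as its replicates a and b.

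The members and gene lists were chosen with earlier results of these data known. All 40 members are accounted for. Library values are given for members past the threshold in a genotype comparison and for the largest and smallest age slope in each role. For some of these, such as CFI, CLU, FGA, FGB, F9, KLKB1 and F7, fetal liver libraries are given in part or not at all. Of other pathway genes, those past the threshold in a genotype comparison or with the largest changes with age are named, except some that are not reported here.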

Additional observations from a re-analysis of the deposited data

Results flagged for a closer look

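The change from d120 to the end of gestation differed between CF and WT liver in 24 members by a test of the difference itself (edgeR, adjusted p under 0.05), 23 of them lower in CF and C7 higher. On the log2 scale the difference was 5.23 for C7, -3.75 for C2 and -3.44 for C1S. C3, C5, C9, C4BPA, C6 and C8A followed with -3.15 to -2.84, and then FGB with -2.82, FGG with -2.74 and FGA with -2.48. The WT term libraries carry library numbers of another range, and the second CF birth library had the lowest hepatocyte level in liver, so genotype, library set and cell make-up cannot be told apart in these differences.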

How the results depend on the processing

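The counts of members called depended on the following settings, in each case without a test of the cause. Shares of all genes called under these alternatives are not given here or above. The counts therefore do not show whether members were called more often than genes at large. For the fetal mean in liver, 1 member was called, against 3 by DESeq2, 2 without the filter, 6 with the hepatocyte covariate and 0 with 1 unit per donor-number stem. DESeq2 called 1 member at d80, and 1 in the slope difference, where the fit without the filter also called 1. For CF d120 to birth the covariate gave 8. For the gallbladder mean DESeq2 gave 23, the covariate 3 and summed d100 libraries 0; for WT gallbladder at birth these gave 7, 12 and 0. F7 in the gallbladder mean turned to 0.22 with the covariate (edgeR, adjusted p = 0.697).

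With 1 library left out, the counts ran from 13 to 18 for the WT slope, 17 to 29 for the CF slope (17 without the first CF d50 library), 0 to 1 for the slope difference, 1 to 2 for the fetal mean, 1 to 7 at d65, 19 to 22 for WT d120 to term, 2 to 22 for CF d120 to birth, 20 to 35 for the perinatal difference and 23 to 37 at the end of gestation. In gallbladder they ran from 1 to 29 for the mean, 0 to 5 for WT birth and 0 to 3 for CF d80 against later stages. No paired analysis was possible because within a tissue the groups compared share no replicate numbers in the labels. Donor numbers are shared between tissues, which were not tested against each other. With 2 libraries per group, a difference that was not called may still be present, above all in gallbladder.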
